A study of Mus musculus with 4 samples.

Results

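Scin and Aif1l, a pair of genes whose products bind actin, were picked by symbol because their levels stood far apart between treated and control cells in an earlier look at these same data. They are 2 of the 2179 genes in the authors' table of group means, so their difference is described here and not tested. The cells were group 3 innate lymphoid cells (ILC3s), sorted as lineage-negative GFP+ cells from large intestinal lamina propria lymphocytes. All mice were Rag1-/- and carried a GFP reporter that marks ILC3s among lineage-negative cells, so they lacked mature T and B cells but kept other innate and stromal cells. One group of littermates received 1 µg of α-DR3, an agonistic antibody to the TNF receptor family member DR3, and the control group received PBS, and cells of both were taken on day 3. Each group had 2 libraries, each made from ILC3s pooled from several mice, and the table gives only the mean FPKM of the 2. FPKM is the number of fragments of a gene per kilobase of transcript, scaled to the mapped fragments of the library. Values of single libraries, which the paper's supplement holds, are not used here, so no spread between libraries, no depth and no test is given for any value that follows.

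Cells move, spread and form contacts by building and taking apart actin filaments, and actin-binding proteins control each step. Scinderin, also called adseverin, is the product of Scin and belongs to the gelsolin family, whose members cut filaments and cap their ends when calcium is bound. Aif1l encodes an actin-binding protein with EF-hand calcium-binding folds, known as Iba2. Its closest relative is Aif1, the gene of Iba1, which is widely used as a marker of macrophages and microglia.

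The 2 genes lie on different chromosomes. Scin (ENSMUSG00000002565.9) lies on the minus strand at chr12:40059769-40134228 of GRCm38, and its principal transcript in GENCODE M21 has 16 exons. Aif1l (ENSMUSG00000001864.7) lies on the plus strand at chr2:31950139-31973442, with 6 exons in its principal transcript. The bases just before each gene are shown so that the start regions of 2 genes with the same direction of difference can be set side by side. They are from RefSeq on GRCm38.p6, read 5′ to 3′ on the strand of the gene, from chr12:40134229-40134478 for Scin and chr2:31950053-31950138 for Aif1l, and end at the base before the first annotated transcript. The Aif1l stretch is the shorter one because GENCODE M21 starts the gene 164 bases before the RefSeq start. Capitals mark the GC box, GGGCGG or its reverse complement CCGCCC.
Scin: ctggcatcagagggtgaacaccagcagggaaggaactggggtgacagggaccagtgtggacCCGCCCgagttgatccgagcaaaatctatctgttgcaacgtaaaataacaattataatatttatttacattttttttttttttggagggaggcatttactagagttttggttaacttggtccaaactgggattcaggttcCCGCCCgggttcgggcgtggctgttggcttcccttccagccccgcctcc
Aif1l: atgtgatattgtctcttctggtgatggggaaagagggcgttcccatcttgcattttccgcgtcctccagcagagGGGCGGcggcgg

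The 250 bases before the RefSeq start held the GC box 2 times for Scin and 3 times for Aif1l on either strand, against at least 1 in 32.7% of 32851 such windows. Those of Aif1l that began 80 and 50 bases before the RefSeq start lie after the GENCODE start, so inside the annotated gene and outside the printed stretch. The remaining 4 motifs searched on both strands were in neither window. These were the NF-kB consensus, found in 3.90% of all windows, the AP-1 motif TGANTCA in 6.75%, the CArG box in 1.47% and TATAAA in 12.4%. Where no match was found, only these letters are missing from this window. The windows differed in base composition. That of Aif1l was 69.6% G and C with 27 CpG pairs, more G and C than 90.2% of all windows, whereas that of Scin was 49.2% with 9 CpG pairs, close to the medians of 52.4% and 6.

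Both genes had a low mean in ILC3s from PBS-treated mice and a much higher one after α-DR3. The authors' mean FPKM of Scin was 1.105 in PBS and 16.8 in α-DR3, a ratio of 15.2 (log2 ratio 3.93). For Aif1l it was 0.385 in PBS and 12.3 in α-DR3, a ratio of 31.9 (log2 ratio 4.998). Every mean in the table is a multiple of 0.005, and a shift of 0.005 in both means alone would put the ratio between 15.2 and 15.3 for Scin and between 31.5 and 32.4 for Aif1l. This range covers rounding only, and says nothing of how far the duplicates lay apart. In RNA from sorted cells in bulk, a larger number of cells with a transcript cannot be told apart from more transcript per cell.

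**Figure D1:**
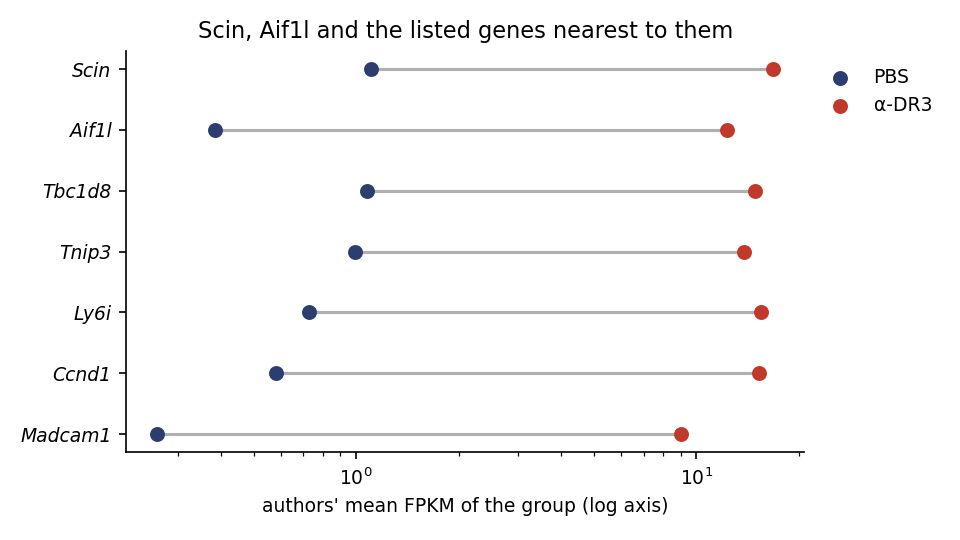
Mean FPKM of each gene (rows) in PBS (blue) and α-DR3 (red) on a log axis, for Scin, Aif1l and the listed genes nearest to them. Each point is the authors' mean of 2 libraries with no error shown. Aif1l lay at 0.385 in PBS and Scin at 1.105, and in α-DR3 both were above 10.

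In each group Scin was the higher of the pair on the FPKM scale, by a factor of 2.87 in PBS and 1.37 in α-DR3. Aif1l had the larger ratio and Scin the larger difference, 15.7 FPKM against 11.9 for Aif1l. By ratio, Aif1l ranked 5 and Scin 23 among the 2174 genes with a PBS mean above 0. By the difference in FPKM they ranked only 394 and 313 of all 2179, since many genes of this table are far more abundant. In PBS the level of Aif1l was above that of 3.95% of the listed genes and that of Scin above 10.4%. In α-DR3 the shares were 55.5% and 63.5%, so both stood above the median level of 9.935 FPKM.

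The ratio depends on how a low PBS mean is treated, more so for Aif1l. With 1 FPKM added to every mean, the ratio was 9.60 for Aif1l and 8.47 for Scin, and the pair ranked 6 and 8. Of the 2174 genes with a ratio, 36.9% were at least 1.5-fold higher in α-DR3, 38.5% at least 1.5-fold lower, and 2.16%, or 47 genes, at least 10-fold higher. The table lists only genes that passed the authors' own cutoffs, so these shares describe listed genes and not all detected ones. The median ratio over the listed genes was 1.30 (log2 0.38), and relative to it Scin was 11.7-fold and Aif1l 24.5-fold higher. This median is taken over genes that passed those cutoffs, so it is only a reference and cannot show a shift between libraries.

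**Figure D2:**
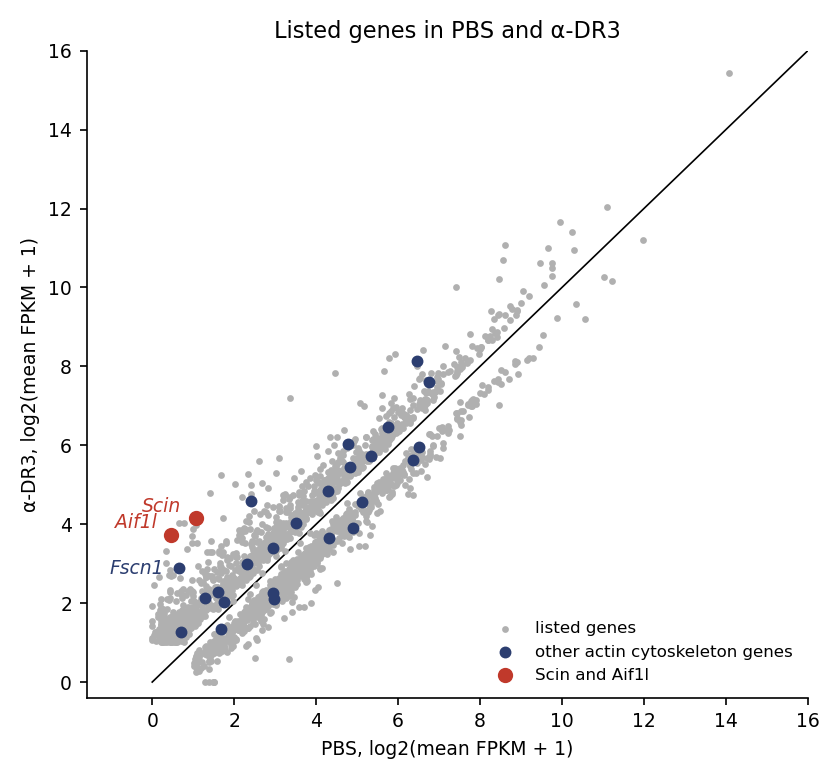
Mean FPKM of all 2179 listed genes in α-DR3 (vertical) against PBS (horizontal), both as log2(mean FPKM + 1), with equal levels on the diagonal. Scin and Aif1l (red) lie at the upper left edge of the listed genes (grey), with Fscn1 as the nearest of the other actin cytoskeleton genes (blue).

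Genes with a like pair of levels were found by distance in log2(mean FPKM + 1) over the 2 groups, which is 2 values a gene and no more. Nearest to Scin were Tbc1d8, which encodes a protein with a Rab GTPase-activating domain (1.08 FPKM in PBS and 14.9 in α-DR3), Tnip3, the gene of a protein that binds A20 and dampens NF-kB signaling (0.99 and 13.8), and Ly6i, of the Ly6 family of surface proteins (0.725 and 15.45). Nearest to Aif1l were Ccnd1, the gene of cyclin D1 (0.58 FPKM in PBS and 15.3 in α-DR3), the addressin gene Madcam1 (0.26 and 9.025), and again Ly6i. The distances ranged from 0.166 to 0.441. Scin and Aif1l were 0.738 apart, and each held place 11 among the neighbours of the other.

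Within 500 kb of Scin, GENCODE M21 has 5 other protein-coding genes, and 0 of them were listed. Around Aif1l 4 of 24 were listed. The share of all protein-coding genes that were listed is not given here, so neither count is set against it. The 4 differed in direction, as did all listed genes, with 36.9% at least 1.5-fold higher and 38.5% at least 1.5-fold lower. Ass1, the gene of argininosuccinate synthase, had a mean of 4.605 FPKM that was 19.2 under α-DR3, and Slc25a25, of a mitochondrial carrier, had 23.5 and 38.4. Lower in α-DR3 were Pomt1, of a protein O-mannosyltransferase, with 4.94 and 2.33, and Fam78a with 3.045 and 1.795.

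Of the gelsolin family, Scin was the only listed member among 8 genes. Gsn, Capg, Flii, Svil, Avil, Vil1 and Vill were not listed, which says only that they did not pass the authors' cutoffs. Of the AIF1 family Aif1l was listed and Aif1 was not. Runs of 50 bases, the read length in the study's methods, showed how far reads could be shared. Of 2985 distinct runs in the Scin transcripts 0.871% also occurred in transcripts of other genes, with 0 in those of Gsn. For Aif1l 1.77% of 4116 runs were shared, with 0 in those of Aif1.

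Over 9 lists of actin cytoskeleton genes, 26 of 148 genes were listed, Scin and Aif1l included. At least 1.5-fold higher in α-DR3 were 13 of them and at least 1.5-fold lower 5, which is 50% and 19.2%, beside 36.9% and 38.5% among all listed genes. Relative to the median ratio of listed genes the counts were 8 and 8, beside 21.0% higher and 45.4% lower among all listed genes. The share of higher ones among those past 1.5-fold thus went from 72.2% to 50%, and over all listed genes from 49.0% to 31.7%. At least 2-fold higher were 8 of the 26 and lower 2, beside 20.3% and 11.8% of all listed genes. Without Scin and Aif1l, 11 were at least 1.5-fold higher and 5 lower, with a median ratio of 1.47 beside 1.30 for all listed genes. Relative to the latter median, 6 of these genes were higher and 8 lower, so lower ones then outnumbered higher ones. Their share of higher ones among those past 1.5-fold went from 68.8% to 42.9%, above the 49.0% and 31.7% of the whole table. Scin and Aif1l had the largest ratios of the 26.

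Genes of proteins that bundle or crosslink filaments made up 11 of the 26, with 7 higher, 1 lower and 3 within 1.5-fold, beside 36.9% higher and 38.5% lower among all listed genes. Relative to the median ratio 4 of the 11 were higher and 2 lower, beside 21.0% and 45.4%. Fscn1, the gene of the filament-bundling protein fascin, came next after Aif1l and Scin, at 0.57 FPKM under PBS against 6.455 with α-DR3, a ratio of 11.3. Palld, which encodes the scaffold protein palladin, had 4.33 FPKM in PBS against 22.9 with α-DR3, and Marcksl1, of a membrane-bound actin-binding protein, had 87.3 and 279.95. Unlike Scin and Aif1l, Marcksl1 was already abundant in PBS. Sptbn1, the gene of a spectrin chain that the table calls Spnb2, was lower, with 19.0 and 11.7.

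Among genes of filament nucleation, the formin genes Inf2 (1.44 FPKM in PBS and 3.38 in α-DR3) and Fmnl1 (27.4 and 42.925) were past 1.5-fold, whereas Wasl, of an activator of the Arp2/3 complex, was not (10.475 and 15.3). A further formin gene, Diaph2, which the table calls Diap2, went the other way within 1.5-fold (2.205 and 1.55), and relative to the median ratio 1 of these 4 genes was higher and 1 lower, beside 21.0% and 45.4% of all listed genes. The monomer-binding and turnover list had Coro2b, a coronin gene, lower (28.9 and 13.9) and Dstn, the gene of the depolymerizing protein destrin, within 1.5-fold (18.65 and 27.6). Both listed capping genes encode adducins, and Add3 (6.67 and 3.77) was past 1.5-fold while Add1 (33.9 and 22.85) was not. Relative to the median ratio both were at least 1.5-fold lower, beside 45.4% of all listed genes. Of the actins only Acta2, the smooth muscle isoform, was listed, at 0.615 FPKM in PBS and 1.39 in α-DR3. Of the myosins Myo1g was higher (107.95 and 194.2), and Myo1f (81.05 and 48.5) and Myo5a (6.805 and 3.295) were lower. Relative to the median ratio 0 of these 3 myosin genes were higher and 2 lower. Zyx, of the adhesion protein zyxin, had 39.6 and 51.65 FPKM, and lay at the median ratio.

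**Figure D3:**
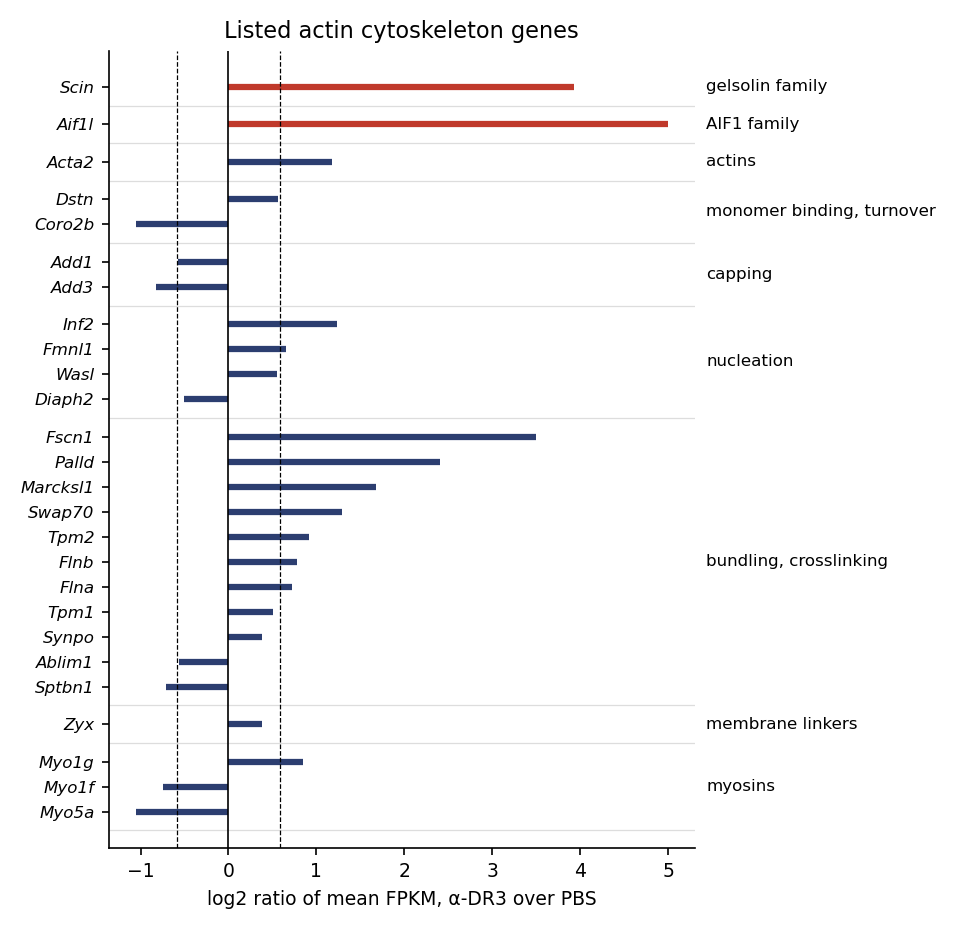
The log2 ratio of mean FPKM, α-DR3 over PBS, for the 26 listed genes of the 9 actin cytoskeleton lists, named by their GENCODE M21 symbols. Dashed lines mark 1.5-fold in either direction, and Scin and Aif1l (red) have the longest bars.

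The sorted cells carried transcripts of ILC3s in both groups. Il22, their main cytokine, had 17424 FPKM under PBS and 44537 with α-DR3, Thy1 had 163 and 268 and Tnfrsf25, which encodes DR3, had 115 and 140.1. Ccr6 had 29.45 and 68.3 and Ahr 10.7 and 16.0, so 5 of the 10 ILC3 markers examined were listed.

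Markers of macrophages and other myeloid cells were higher in α-DR3 alongside Scin and Aif1l. Of 19 such genes 8 were listed, and all 8 were at least 1.5-fold higher, beside 36.9% of all listed genes. Relative to the median ratio 7 were, the exception being Zbtb46, beside 21.0%. Their summed level was 51.9 FPKM in PBS and 129 in α-DR3, and most of it in each group was Zbtb46, with 42.3 and 71.4. This transcription factor gene was on the list as a dendritic cell marker, and whether ILC3s themselves carried it was not tested. The lysozyme gene Lyz2 had 4.085 and 37.9 FPKM, Cd68 3.105 and 7.165, and Adgre1, which encodes the macrophage marker F4/80 and appears as Emr1, had 0.19 and 1.175. The complement genes C1qa, C1qb and C1qc stood at 0.455, 0.67 and 0.495 FPKM without and at 1.935, 4.17 and 1.59 FPKM with α-DR3, and Cd14 had 0.64 and 3.91. In α-DR3 only Lyz2 and Zbtb46 of these 8 had a higher level than Scin and Aif1l. Csf1r, Itgam, Itgax and Aif1 itself were among the 11 not listed. In the study's flow cytometry the lineage stain included CD11b and CD11c, the products of Itgam and Itgax. How many cells with these markers remained after the sort is not given here. The part of myeloid cells in the levels of Scin and Aif1l was not tested.

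Fibroblast genes were also higher, with 5 of 6 listed and at least 1.5-fold higher, or 4 relative to the median ratio, beside the same shares of 36.9% and 21.0%. Dcn had a mean of 3.16 FPKM without and 8.685 with α-DR3, Col3a1 1.225 and 3.06, Lum 0.60 and 1.82, Col1a1 0.97 and 1.945, and Col1a2 0.625 and 1.07, the last within 1.5-fold relative to the median ratio. The summed level was 6.58 and 16.6 FPKM, and their part was not tested either. The epithelial list had 1 of 11 genes, Lgals4, at 12.4 and 5.275 FPKM. No gene of the lists for granulocytes and mast cells (0 of 8), endothelial cells (0 of 6) or T and B cells (0 of 8) was listed. Not being listed says only that a gene did not pass the authors' cutoffs, so these counts do not show that such cells were absent. These lists are short, and other genes known from such cells were listed, some higher and some lower in α-DR3, and those named here were chosen after their values were seen. Higher were the endothelial genes Cldn5 (1.75 FPKM in PBS and 8.77 in α-DR3) and Sele (1.07 and 2.39), the basophil protease gene Mcpt8 (0.375 and 1.49) and the B-cell receptor gene Cd79b (10.9 and 27.2), and the neutrophil gene Retnlg was listed at 0 in PBS and 1.155 in α-DR3. Lower were the endothelial gene Esam (6.565 and 3.005) and the T-cell genes Cd28 (20.5 and 8.77) and Bcl11b (2.39 and 0.80). The lineage stain also included CD3 and B220, markers of T and B cells, and these mice lack the mature forms of both. The part of these cells in the levels of Scin and Aif1l was not tested.

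**Figure D4:**
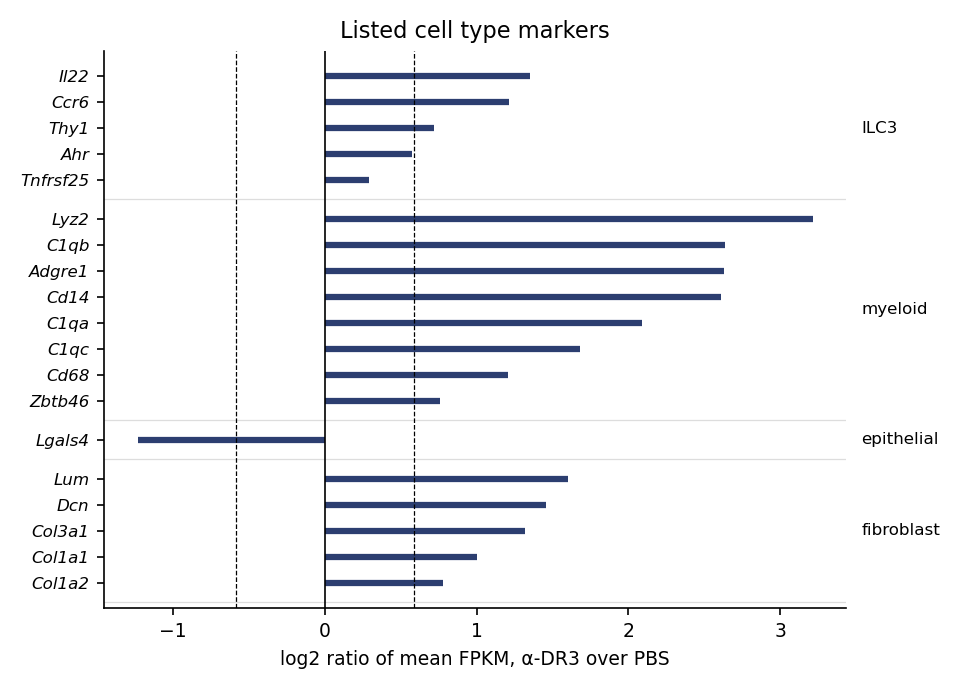
The log2 ratio of mean FPKM, α-DR3 over PBS, for the listed cell type markers, with 5 ILC3, 8 myeloid, 1 epithelial and 5 fibroblast genes. Dashed lines mark 1.5-fold. The 8 myeloid and 5 fibroblast genes lie to the right of the upper line, whereas Lgals4 lies to the left of the lower line.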

How the data were processed

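Poly(A) RNA of sorted ILC3s was sequenced from 2 libraries per group. According to the methods and the submitters' processing notes, the authors mapped paired-end reads to GRCm38.p5 with STAR 2.5, quantified genes with RSEM 1.2 on GENCODE M16 and compared groups with edgeR 3.18.1. The deposited FPKM are group means that the authors took over the libraries, unscaled between libraries, and the column headed wt was taken as PBS, the only other group. The smallest value of the larger of both means was 1.005 FPKM, so genes low in both groups are not listed. The deposited gene length, a number of bases in another column, was not used (4373 for Scin and 6069 for Aif1l, against 2999 and 4032 in all GENCODE M21 exons). Identifier versions (9 and 7) were below those of M21 (16 and 13), and the table has older symbols such as Emr1, so its annotation, and the transcript lengths behind its FPKM, may be older than M16. The columns with the authors' fold changes, likelihood ratios, p-values and FDR were not used, and the table gives no depth per library.

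Ratios of means were computed in Python 3.11.15 with numpy 2.4.6 and pandas 2.3.3, after checks on simulated data, and plotted with matplotlib 3.10.9. A gene counted as higher or lower at 1.5-fold, the limit of the study. The 5 genes with a PBS mean of 0 got no ratio. GENCODE M21 held 2149 of 2179 identifiers, through which older symbols were matched. Named are Scin, Aif1l, listed members of their families, the 3 largest ratios of each other actin list, listed markers, except 1 that is not reported here, and the 3 nearest genes. The members of the lists beyond these, and genes within 500 kb, were named after their values were seen. The members and lists were chosen with earlier results of these data known. The planned fits on single libraries were not run, because the table holds group means and the values of single libraries in the paper's supplement were not used here. Alternatives were pseudocounts of 0.1 and 1, division by the median ratio, a mean over 5 FPKM in either group and a limit of 2-fold.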

Additional observations from a re-analysis of the deposited data

How the results depend on the processing

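Both genes stayed higher in α-DR3 under every setting that was run, but no setting could have changed this. An equal amount added to both means keeps their order, and the median ratio of 1.30 is far below 15.2 and 31.9. Because values of single libraries were not used, no error was computed, and a value counted as moved when it changed by over 1.5 times. With a pseudocount of 1 FPKM the log2 ratio was 3.08 for Scin and 3.26 for Aif1l, since both PBS means are low. It changed less with a pseudocount of 0.1 or with division by the median ratio. By ratio Scin ranked 8 with a pseudocount of 1, 14 with 0.1 and 12 among the 1638 genes with a mean over 5 FPKM in either group. Aif1l ranked 3 both with 0.1 and in that subset. With a limit of 2-fold, 8 actin cytoskeleton genes were higher and 2 lower, beside 20.3% and 11.8% of all listed genes, and after division by the median ratio 8 were higher and 8 lower, beside 21.0% and 45.4%. The counts with a pseudocount of 1 or a mean over 5 FPKM moved less. No paired analysis was possible because only the group means of the table were used, and for the same reason no library was left out in turn. The values of single libraries in the paper's supplement were not used here, so the distance between duplicates is not given, and neither are depth and counting error.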
